A study of Marchantia polymorpha with 6 samples.

Results

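The 92 genes described here were well expressed in thalli of the Marchantia polymorpha mutant Mpbes1 and moderately higher there than in the wild type Tak-1. They were chosen from 19287 gene models by their levels in CPM, the count of a gene over the total of its library times 1000000. A member had a mean of at least 50 CPM in Mpbes1, a ratio of mean Mpbes1 CPM to mean Tak-1 CPM of at least 2 and under 8, and its lowest Mpbes1 value above its highest Tak-1 value. Because all 6 libraries and this contrast chose the genes, their levels and differences between genotypes are a description, and calls from the fit across all genes, where printed, are no independent test of them.

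Marchantia polymorpha is a liverwort whose main body, the thallus, is a haploid green plate that grows from apical notches. BES1 belongs to the BES1/BZR1 family of transcription factors, known in Arabidopsis for carrying the brassinosteroid signal to gene promoters, where family members activate some genes and repress others. In Arabidopsis, a GSK3-type kinase phosphorylates these factors and keeps them inactive until the hormone is perceived.

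Mpbes1 plants carry a CRISPR/Cas9-made mutation of BES1, and Tak-1 is the male wild-type accession named as the cultivar for every sample. For the mutant allele, and for whether the mutant plants descend from 1 line, no source used here gives an answer. Both genotypes were 30 days old, were grown on agar medium in long days without treatment, and were sampled as thalli with their apical notches. There were 3 libraries of Mpbes1 and 3 of Tak-1, each from a different plant. Totals were 11597664 to 17741253 counts in Mpbes1 and 11650752 to 13609401 counts in Tak-1.

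The deposited identifiers are not paired with gene names in the files, and 0 of them matched the available gene table of another assembly, so neither the role of a member nor markers of thallus tissue could be given, and the transcript of BES1 itself was not analysed here. Members are therefore named by scaffold and position, in the coordinates of the deposited table, whose genome build no source used here names. Exon blocks are the exons of a gene model merged where they overlap. Counts are from whole thalli, in which more cells of a type and more RNA per cell cannot be told apart.

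Of the 19287 gene models, 4562 had a mean of at least 50 CPM in Mpbes1, and the 92 members were 2.02% of these. A further 60 genes of that level had a ratio of at least 8. Members took 1.37% ± 0.04 of all counts in Mpbes1 and 0.512% ± 0.016 in Tak-1 (SD, n = 3). In edgeR's quasi-likelihood test over 12313 genes, all 92 were called higher in Mpbes1 at a Benjamini-Hochberg adjusted p under 0.05, where 19.3% of tested genes were called higher, and the rule itself used this contrast. By the rule the groups did not overlap in any of the 92, and over the tested genes 30.9% had all Mpbes1 values above all Tak-1 values. The fitted log2 fold changes of the members ran from 0.96 to 2.85 with a median of 1.26, beside a median of 0.01 over all tested genes. At least 2-fold in that fit were 78 members, where 4.55% of tested genes were called higher at least 2-fold. The other 14 lay between 0.96 and 1.00 in log2 fold change. The fit scales libraries by TMM factors, and the rule by column totals.

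**Figure D1:**
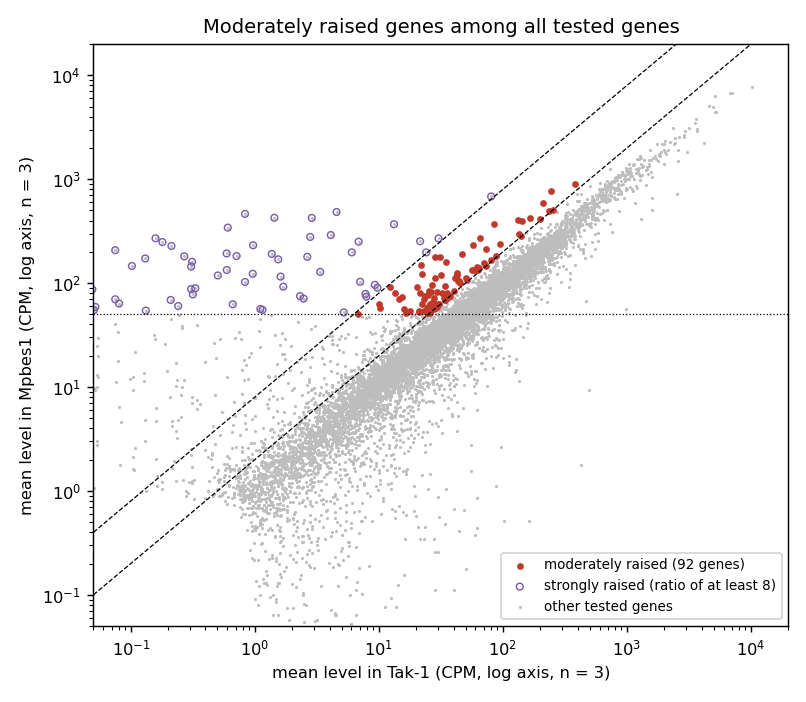
Mean level in Mpbes1 (vertical, CPM, log axis, n = 3) against mean level in Tak-1 (horizontal, CPM, log axis, n = 3) for tested genes, with the ratios 2 and 8 as dashed lines and 50 CPM as a dotted line; genes with a mean under 0.05 CPM in either genotype lie outside the axes. The 92 moderately raised genes fill the band between the dashed lines above 50 CPM, and 47 of them have a ratio under 2.5.

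Most members lay near the lower limit of the ratio. There were 47 with a ratio under 2.5, 14 from 2.5 to 3, 14 from 3 to 4 and 17 of at least 4, and the median ratio was 2.47. Mean levels in Mpbes1 ran from 50.8 to 889 CPM with a median of 87.8 CPM, and mean levels in Tak-1 from 6.81 to 381 CPM with a median of 31.4 CPM. In Tak-1, 27 of the 92 already reached 50 CPM, and 10 were under 20 CPM. The smallest count of any member in any library was 78. The rule limits from below the mean of a genotype, not a single library. In 56 of the 92 the lowest Mpbes1 value was at least 2 times the highest Tak-1 value. The ratio and non-overlap conditions of the rule favour such gaps. The share over all tested genes was not counted, so nothing is read from this count. A small number of genes held much of the members' signal: the 10 highest by CPM held 38.5% of it in Mpbes1 and 40.02% in Tak-1.

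The highest member was Mapoly0199s0016.v3.1, on the plus strand of scaffold_199 from 134347 to 135905, with 2 exon blocks. It had 800.1, 882 and 986 CPM in the Mpbes1 libraries, against 338, 291 and 513 CPM in the Tak-1 libraries. The groups did not overlap, and plant 3 of Tak-1 stood above the other two. Its log2 fold change was 1.18 ± 0.22 (SE).

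The gene on scaffold_145 from 120997 to 123727, also with 2 exon blocks, had 820.4, 804 and 699 CPM in Mpbes1 and 259, 232 and 247 CPM in Tak-1. Its spread within each genotype was small beside the difference, with a log2 fold change of 1.61 ± 0.09 (SE). The gene on scaffold_132 from 258476 to 259744, with 3 exon blocks, had 655, 621 and 508 CPM in Mpbes1 and 248, 184 and 204 CPM in Tak-1. Plant 3 was the lowest of Mpbes1.

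A second gene of scaffold_199, from 153529 to 154870, had 498, 548 and 482 CPM in Mpbes1 and 198, 294 and 265 CPM in Tak-1. It had a ratio of 2.02, close to the lower limit. On scaffold_183, the gene from 160662 to 163108 with 6 exon blocks had 534, 482 and 481 CPM in Mpbes1 and 256, 238 and 207 CPM in Tak-1. The gene on scaffold_36 from 1049078 to 1057195, with 11 exon blocks, was among the steadiest of the high members, at 415, 431 and 414 CPM in Mpbes1 and 170.2, 162 and 165 CPM in Tak-1. Its coefficient of variation, the SD as a percent of the mean, was 2.21% in Mpbes1 and 2.40% in Tak-1.

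Among the rest, 3 genes had the highest means in Tak-1. The 1-block gene on scaffold_101 from 155517 to 156209, the shortest member with 693 exon bases, had 375, 354 and 499 CPM in Mpbes1 and 207, 163 and 226 CPM in Tak-1. The gene on scaffold_38 from 534549 to 546558, with 32 exon blocks, had 350.2, 355 and 473 CPM in Mpbes1 and 129, 138 and 161 CPM in Tak-1. In both, plant 3 of Mpbes1 was above the other two. The gene on scaffold_7 from 2150642 to 2152797 had 315, 284 and 254 CPM in Mpbes1 and 152, 136 and 134 CPM in Tak-1.

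Levels of different genes were compared per length, as TPM (counts per exon base, scaled to a sum of 1000000). Mapoly0199s0016.v3.1 had the highest mean of the members in Mpbes1, with 1234 ± 140.5 TPM in Mpbes1 and 535 ± 158 TPM in Tak-1 (SD, n = 3), rank 122 in Mpbes1 and rank 282 in Tak-1 among the 19287 models. The scaffold_132 gene followed with 1174 ± 142 TPM in Mpbes1 and 426 ± 65.8 TPM in Tak-1, and the scaffold_101 gene with 1115 ± 226 TPM in Mpbes1 and 549 ± 83.2 TPM in Tak-1. In Mpbes1 the means of these 3 genes lay within 1 SD of each other. In Tak-1 the scaffold_101 gene had the highest mean of the 3, again within the spread of the scaffold_199 gene. The scaffold_145 gene, second by CPM, had 618 ± 47.0 TPM in Mpbes1 and 199.6 ± 10.5 TPM in Tak-1, with an exon length of 2363 bases. Within the 1000 highest genes by TPM were 21 members in Mpbes1 and 8 in Tak-1.

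The highest ratio belonged to Mapoly0078s0055.v3.1 on scaffold_78 (plus strand, 1 exon block) from 848904 to 850754. It had 44.6, 57.2 and 50.6 CPM in Mpbes1, against 6.98, 6.77 and 6.69 CPM in Tak-1, a ratio of 7.45 and a log2 fold change of 2.85 ± 0.12 (SE). It was also the member with the lowest mean in Mpbes1, so it lies near a pair of the rule's limits. Its lowest Mpbes1 value was 6.39 times its highest Tak-1 value, the widest gap of any member.

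The gene on scaffold_76 from 600036 to 604115, with 7 exon blocks, had 80.7, 74.1 and 120.3 CPM in Mpbes1 and 12.9, 12.1 and 12.2 CPM in Tak-1. The 3 Tak-1 plants were alike, while plant 3 of Mpbes1 stood above the other two, and the ratio was 7.42. The gene on scaffold_33 from 995312 to 1002203, with 4 exon blocks and 5715 exon bases, was tight in both genotypes, at 141, 157 and 150.1 CPM in Mpbes1 and 20.4, 22.3 and 22.2 CPM in Tak-1. Its ratio was 6.90.

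The gene on scaffold_26 from 1172803 to 1183219 had 193, 168 and 176 CPM in Mpbes1 and 34.1, 24.6 and 26.01 CPM in Tak-1, a ratio of 6.34. It has 2 exon blocks and 6651 exon bases, the most of any member with 2 blocks. The gene on scaffold_79 from 170065 to 172631 had 60.7, 58.4 and 69.5 CPM in Mpbes1 and 10.1, 9.18 and 10.7 CPM in Tak-1, a ratio of 6.29. These 5 genes of highest ratio had 50.8 to 179 CPM in Mpbes1 on average, well under the highest members. Over the 92 genes, ratio and mean Mpbes1 CPM had a Spearman correlation of 0.14 and ratio and exon length one of 0.04 (n = 92 genes of the same 6 libraries, a description).

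**Figure D2:**
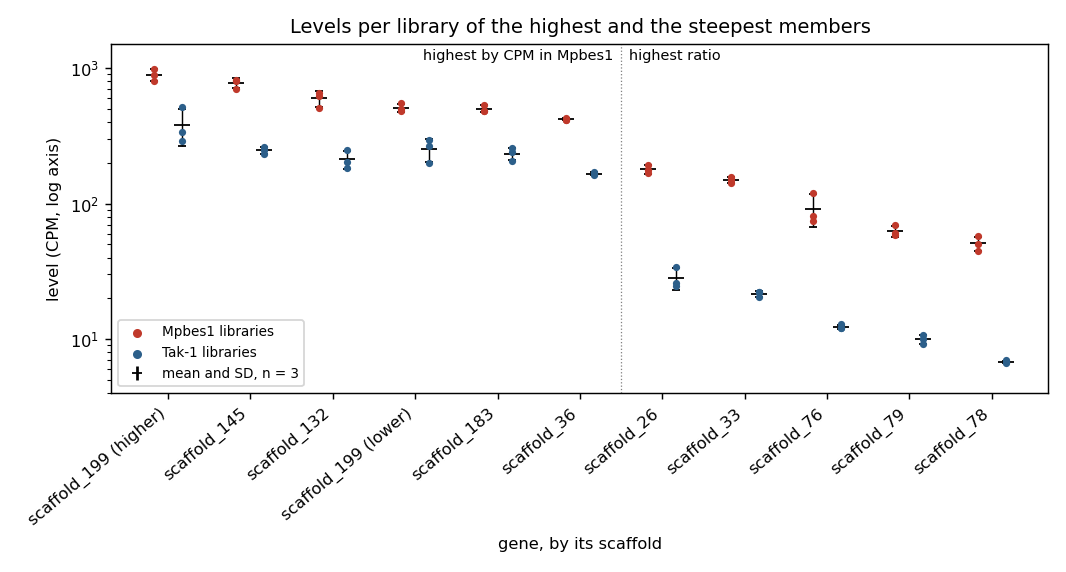
Level per library (CPM, log axis) of the 6 members highest by CPM in Mpbes1 and the 5 with the highest ratio, Mpbes1 in red to the left of Tak-1 in blue, with mean and SD (n = 3). The highest members start from 166 to 381 CPM in Tak-1, and those of highest ratio from 6.81 to 28.2 CPM.

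At the lower end of the ratio, 5 members had ratios of 2.003 to 2.01. The gene on scaffold_147 from 339701 to 346421 had 141, 134 and 165 CPM in Mpbes1 and 65.1, 83.6 and 71.0 CPM in Tak-1. The gene on scaffold_30 from 799562 to 802142 had 55.9, 56.8 and 58.2 CPM in Mpbes1 and 30.5, 27.5 and 27.3 CPM in Tak-1. The first spread over a wide range in Tak-1 and the second was steady in both genotypes. The remaining 3 lie on scaffold_36, scaffold_74 and scaffold_70, with means of 68.6, 51.7 and 69.1 CPM in Mpbes1 and 34.2, 25.7 and 34.3 CPM in Tak-1. The gene on scaffold_74 overlaps a model on the opposite strand, whose reads may not have been separated from its own. That model had a mean of 0.029 CPM in Mpbes1 and 0 CPM in Tak-1.

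The limits cut through a continuous range. Just below the ratio of 2 were genes on scaffold_72, scaffold_13 and scaffold_10 with ratios of 1.99, 1.97 and 1.97, and 136 genes that met the other conditions had ratios from 1.5 to 2. Just above the ratio of 8 were genes on scaffold_92, scaffold_37 and scaffold_51 with ratios of 8.197, 8.49 and 8.91, beyond a largest member ratio of 7.45. Just under the level limit were genes on scaffold_9, scaffold_39 and scaffold_21 with means of 49.9, 49.8 and 49.5 CPM in Mpbes1, against 50.8, 51.6 and 51.7 CPM for the lowest members. The condition of no overlap removed 0 genes that met the other 3.

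Some members came close to overlap. The gene on scaffold_37 from 795640 to 798397 had the narrowest gap, with 162, 104 and 136 CPM in Mpbes1 and 83.7, 58.3 and 47.0 CPM in Tak-1. In both genotypes plant 1 was the highest, and its lowest Mpbes1 value was 1.24 times its highest Tak-1 value. The gene on scaffold_87 from 713934 to 715451 had 96.3, 108 and 95.03 CPM in Mpbes1 and 38.5, 62.2 and 33.6 CPM in Tak-1, with plant 2 of Tak-1 apart. The gene on scaffold_39 from 1473566 to 1476645 had 65.9, 57.4 and 86.9 CPM in Mpbes1 and 30.0, 37.0 and 37.3 CPM in Tak-1, with the spread on the mutant side.

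Relative spread between plants of a genotype was larger in the median member than in the median of other genes of that level. The median coefficient of variation was 8.38% in Mpbes1 and 10.7% in Tak-1 over the 92 members, and 4.25% in Mpbes1 and 6.71% in Tak-1 over 4410 other genes of at least 50 CPM in Mpbes1, where the strongly raised genes are left out. The moderately lowered genes were close to the members, with 8.52% in Mpbes1 and 11.6% in Tak-1, and all tested genes had 6.50% in Mpbes1 and 8.997% in Tak-1. Only in Mpbes1 were the 4410 other genes chosen by level. In Tak-1 their median level per library was 97.7 to 100.3 CPM, against 30.6 to 32.9 CPM in the members. Differences between lists, and the part of level in them, were not tested. The 60 strongly raised genes had 19.2% in Mpbes1 and 30.0% in Tak-1, where their median level per library was 0.815 to 0.992 CPM. A coefficient over 20% was found in 5 members (5.43%) in Mpbes1, in 11 (11.96%) in Tak-1 and in 2 in both. Over all tested genes the shares were 12.3% in Mpbes1 and 15.3% in Tak-1, and over the other genes of that level 0.748% in Mpbes1 and 2.29% in Tak-1.

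The most variable in Mpbes1 was the gene on scaffold_50 from 1096616 to 1102777, with 12 exon blocks. It had 56.7, 77.6 and 105 CPM in Mpbes1, against 10.9, 16.8 and 12.6 CPM in Tak-1, so the plants of Mpbes1 differed among themselves by more than the Tak-1 level. The most variable in Tak-1 was the only gene model of scaffold_371, from 9204 to 10636, with 2 exon blocks. Its 421, 409.8 and 394 CPM in Mpbes1 were close together, against 101, 104 and 188 CPM in Tak-1, where plant 3 was the highest, as for Mapoly0199s0016.v3.1. At the other end, the gene on scaffold_32 from 1279171 to 1284226 had 53.8, 54.5 and 54.6 CPM in Mpbes1 and 21.1, 21.0 and 21.0 CPM in Tak-1. The genes on scaffold_371 and scaffold_32 were chosen after their values were seen.

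No single plant was the highest in most members. Plant 3 of Mpbes1 had the highest CPM of its genotype in 46 members (50.0%), plant 1 in 29 and plant 2 in 17. Among the 4410 other genes of that level, plant 3 was the highest in 41.0%. Plant 2 was the lowest in 45 members (48.9%), against 36.3% of those other genes. The sizes were small: the median member deviated from its Mpbes1 mean by -0.01, -0.04 and 0.03 on the log2 scale in plants 1, 2 and 3. In the strongly raised genes the order was more marked, with plant 3 the highest in 49 of 60 (81.7%) and median deviations of -0.01, -0.27 and 0.23. The library of plant 3 of Mpbes1 was also the deepest of the 6, and the part of depth in this order was not tested. In Tak-1, plant 1 was the highest in 44 members (47.8%), against 34.4% of the other genes of that level. Plant 2 of Tak-1 was the highest in 28 members and plant 3 in 20 (21.7%), against 36.2% and 29.4% of those other genes.

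**Figure D3:**
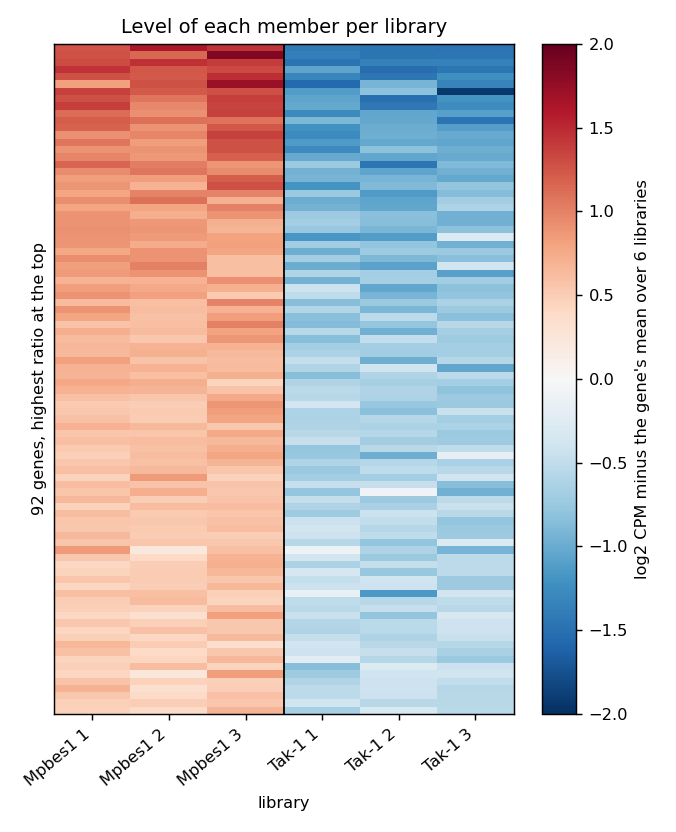
Level of each of the 92 members in each library (colour, log2 CPM minus the gene's mean over the 6 libraries), Mpbes1 plants left of Tak-1 plants, genes ordered from the highest ratio of 7.45 at the top to the lowest of 2.003 at the bottom. All members are above their mean in the Mpbes1 columns, and single plants stand out in some rows, such as plant 3 of Mpbes1 for the scaffold_76 gene in the row below the top one.

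Gene structure was not a condition of the rule, but its CPM limit is not scaled by exon length. At an equal TPM a longer model has more CPM. Members had a median of 4 exon blocks and 2157 exon bases, against 7 blocks and 2778 bases for the 4410 other genes of at least 50 CPM in Mpbes1 and 5 blocks and 2394 bases for all tested genes. Gene models with 2 blocks made up 22 of the 92 (23.9%, exact 95% interval 15.6 to 33.9) against 10% (9.13 to 10.9) of the other genes of that level and 15.3% of all tested genes. Models with 1 block were 5 of the 92 (5.43%, 1.79 to 12.2) against 7.94% of the other genes of that level and 13.6% of all tested genes. Models with 1 or 2 blocks made up 29.3% (20.3 to 39.8) of the members, against 17.9% of the other genes of that level and 28.9% of all tested genes. Models with over 10 blocks were 18 of the 92 (19.6%, 12.03 to 29.1) against 29.9% (28.5 to 31.3) of the other genes of that level and 20.04% of all tested genes. In both of these shares the members lay near the tested genes as a whole and away from genes of their own level. With the rule applied to TPM, the share with 1 or 2 blocks was 40.5%. For that share the nearness to all tested genes therefore depended on the rule. The share with over 10 blocks, and the other genes of like level, were not recomputed by TPM. Intervals treat genes as independent, and these differences were not tested.

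The 60 strongly raised genes had shorter models still, with a median of 3 blocks and 1148 exon bases. Of them 36.7% (24.6 to 50.1) had 2 blocks, and 1 of 60 had over 10. The mirror list of 136 moderately lowered genes, with at least 50 CPM in Tak-1, had a median of 4 blocks and 2312 bases, with models of 1 block at 16.2% (10.4 to 23.5) and models of 2 blocks at 15.4% (9.82 to 22.6). Median intron length per gene was 1379.5 bases in the members, near the 1320.0 bases of all tested genes. It was 401 bases in the strongly raised genes, 770.0 bases in the lowered genes and 1936 bases in the other genes of at least 50 CPM in Mpbes1.

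**Figure D4:**
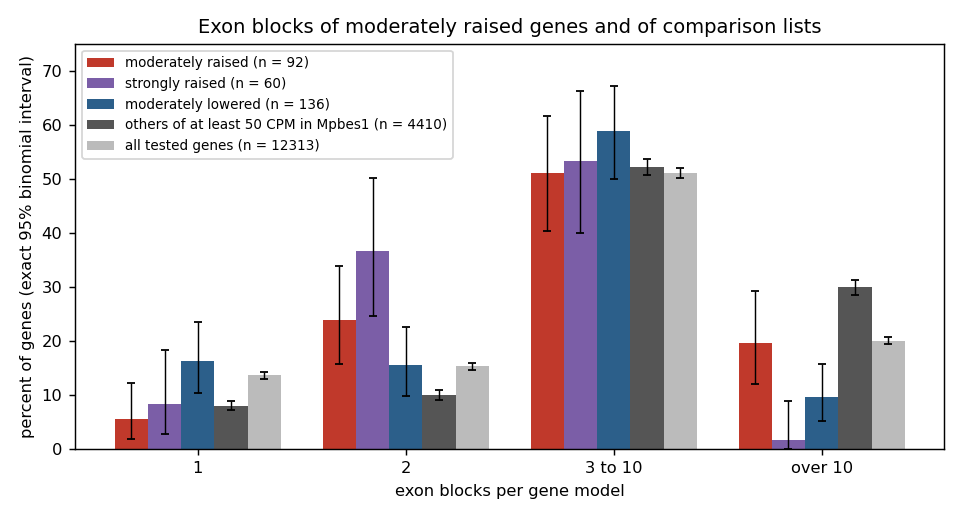
Percent of genes (vertical, bars from 0 with exact 95% binomial intervals) with 1, 2, 3 to 10 and over 10 exon blocks in the moderately raised genes, the strongly raised genes, the moderately lowered genes, other genes of at least 50 CPM in Mpbes1 and all tested genes. In the class of 2 blocks the moderately raised genes stand at 23.9%, between the strongly raised at 36.7% and the other genes of that level at 10%.

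Within the members, level per length was higher in models with 2 blocks than in those with more, going by medians. The limit of 50 CPM is not scaled by length, so longer models could enter at a lower TPM. Part of this order is therefore set by the rule. The 22 genes with 2 blocks had a median of 120.0 TPM in Mpbes1 and 55.5 TPM in Tak-1, the 47 with 3 to 10 blocks 75.8 TPM in Mpbes1 and 23.4 TPM in Tak-1, and the 18 with over 10 blocks 56.9 TPM in Mpbes1 and 21.3 TPM in Tak-1. Their median ratios were 2.40, 2.40 and 2.72. In the same order, median exon lengths were 1820, 2115 and 3446.5 bases, and median levels in Mpbes1 were 113, 80.4 and 82.9 CPM. The 5 genes with 1 block had a median of 68.1 TPM in Mpbes1 and 22.7 TPM in Tak-1. In sum, the genes with 2 blocks had 4648 ± 21.6 CPM in Mpbes1 and 1740.0 ± 158 CPM in Tak-1 (SD, n = 3). Those with over 10 blocks summed to 2375 ± 181 CPM in Mpbes1 and 882 ± 16.9 CPM in Tak-1.

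Members with many exon blocks differed in level per length. The longest, on scaffold_53 from 749814 to 770190 with 36 exon blocks and 12143 exon bases, had 96.7, 84.5 and 100.2 CPM in Mpbes1 and 31.4, 39.2 and 31.4 CPM in Tak-1. Per length it was the lowest member, with 14.6 ± 1.41 TPM in Mpbes1 and 5.37 ± 0.76 TPM in Tak-1 (SD, n = 3). The 32-block gene of scaffold_38 named above reached 151 ± 28.2 TPM in Mpbes1 and 55.6 ± 5.76 TPM in Tak-1.

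The 92 members were spread over 65 scaffolds, 43 with 1 member, 17 with 2 and 5 with 3. On the sequences Chr_Y_A and Chr_Y_B, which hold 113 models, there were 0 members, beside 92 among all 19287 models. At that share a set of this size would hold few or none, so nothing is read from it. Strands were near even, with 42 members on the plus strand. Overlap with a model on the opposite strand affected 4 members and with a model on the same strand 2 others, and reads of those may be mixed. The overlapping models had means of 0 to 9.37 CPM in Mpbes1 and 0 to 8.04 CPM in Tak-1. There were 2 pairs of members next to each other, and 12 members lay within 10 gene models of another.

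The densest group was on scaffold_199, among gene models of like structure. Of its 21 models, 13 have 2 exon blocks, and 10 of those had at least 50 CPM in Mpbes1, with exon lengths of 1056 to 2081 bases between positions 72505 and 157448. Members made up 3 of the 10, and the 7 others had log2 fold changes of -0.39 to -0.05, of which 3 were called lower. The member from 136763 to 138209 lies 857 bases from Mapoly0199s0016.v3.1 on the opposite strand. It had 70.8, 80.0 and 60.7 CPM in Mpbes1 and 20.1, 19.1 and 30.6 CPM in Tak-1, plant 3 of Tak-1 again being the highest. In the member from 153529 to 154870, plant 2 of Tak-1 was the highest.

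The neighbour on the other side of Mapoly0199s0016.v3.1, from 131853 to 133502, had 2892 ± 174 CPM in Mpbes1 and 3682 ± 191 CPM in Tak-1 (SD, n = 3) and was called lower (log2 fold change -0.39 ± 0.09, SE). The model between the 2 later members had 463 ± 23.3 CPM in Mpbes1 and 478 ± 129 CPM in Tak-1. In sum the 10 models had 12022 ± 475 CPM in Mpbes1 and 12974 ± 1037 CPM in Tak-1, a difference of less than the SD in Tak-1. Sequences of these models were not used here, and whether any share reads was not tested.

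The second adjacent pair lies on the plus strand of scaffold_21, 704 bases apart, with 8 exon blocks in each gene. The gene from 1699683 to 1706904 had 293, 289 and 301 CPM in Mpbes1 and 148, 142 and 117 CPM in Tak-1. The gene from 1707609 to 1715966 had 115, 111 and 111 CPM in Mpbes1 and 54.2, 54.4 and 41.5 CPM in Tak-1. Both were steady in Mpbes1 and lowest in plant 3 of Tak-1, and their log2 fold changes were 1.07 ± 0.08 and 1.12 ± 0.09 (SE). The gene upstream of the pair went the other way, with 112 ± 4.81 CPM in Mpbes1 and 232 ± 13.0 CPM in Tak-1.

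On scaffold_59, 3 members lie on the plus strand within 11 consecutive gene models. The first, from 843307 to 846470, had 374, 316 and 429 CPM in Mpbes1 and 81.1, 87.5 and 86.8 CPM in Tak-1. The others, from 861081 to 867659 and from 947521 to 953479, had means of 156 and 81.9 CPM in Mpbes1 and 70.8 and 26.5 CPM in Tak-1. The model between the first 2 was called higher by far less, with a log2 fold change of 0.26 ± 0.08 (SE).

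Most genes next to members did not move with them. Of 120 tested genes that flank a member and are no members, 32 (26.7%) were called higher, beside 19.3% of all tested genes, and 14 (11.7%) at least 2-fold, beside 4.55%. Lower were 21 (17.5%), beside 21.1%, and at least 2-fold lower 8 (6.67%), beside 7.16%. Their median log2 fold change was 0.06, so the typical neighbour was near the median of all genes, and the differences in share were not tested.

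By orientation, 10 of the 14 neighbours that rose at least 2-fold were among the 70 on the same strand as the member, 3 among 36 tail-to-tail and 1 among 14 head-to-head. Of those 10, 2 lie on either side of a member on scaffold_2 and 1 next to a member of scaffold_53. On scaffold_53 the member from 928826 to 930779 had 109, 107 and 140.3 CPM in Mpbes1 and 39.1, 42.3 and 45.7 CPM in Tak-1, and the gene 2162 bases beyond it had 182 ± 30.5 CPM in Mpbes1 and 0.713 ± 0.158 CPM in Tak-1 (SD, n = 3). On scaffold_2 the member from 2287671 to 2290244 had 129, 144 and 145 CPM in Mpbes1 and 62.5, 60.4 and 68.9 CPM in Tak-1. It lies between a gene with 103 CPM in Mpbes1 and 0.833 CPM in Tak-1 and a gene with 4.61 CPM in Mpbes1 and 0 counts in Tak-1. These neighbours changed by far larger ratios than the members between or beside them, and were chosen after their values were seen.

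**Figure D5:**
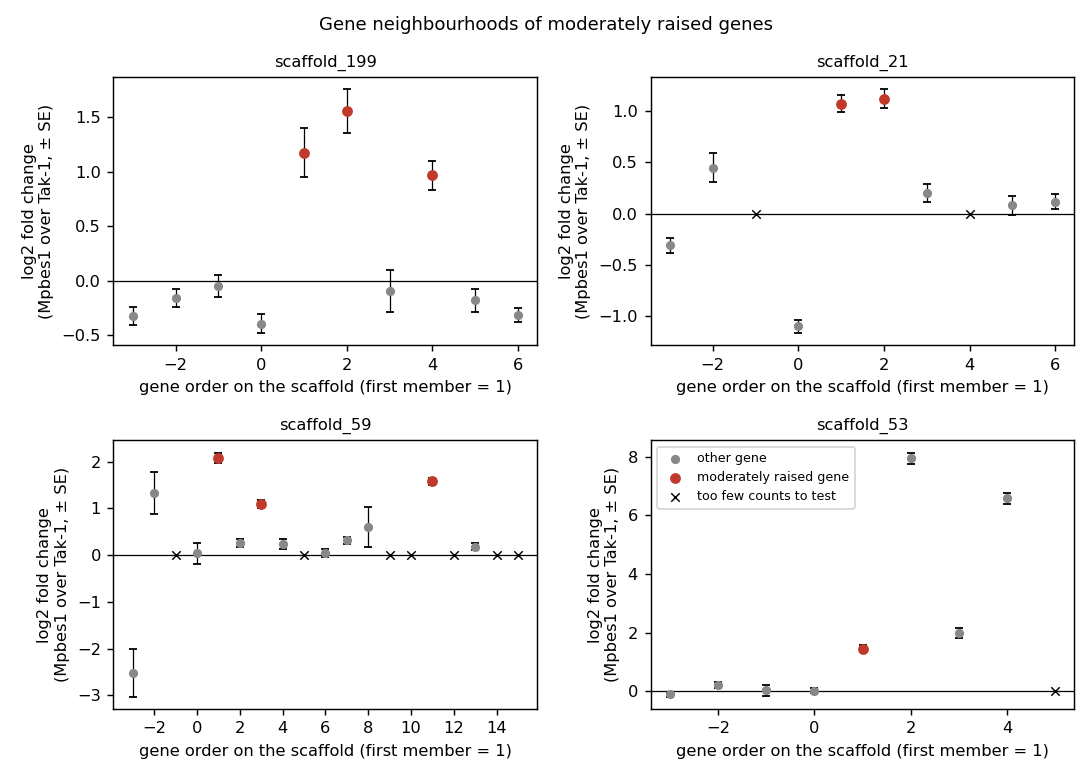
Log2 fold change (Mpbes1 over Tak-1, ± SE from the edgeR fit) of consecutive gene models around members on 4 scaffolds, by gene order, with members in red, other genes in grey and models with too few counts to test as crosses at 0. On scaffold_199 the 3 members (0.97 to 1.56) stand among models at or below 0, and on scaffold_53 the member at 1.45 is followed by models at 7.95, 1.99 and 6.58.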

How the data were processed

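The authors deposited raw read counts per gene for 6 libraries, whole numbers with no normalization, together with exon positions and the exon length of each model. The tools listed, per the submitters' processing notes, were edgeR, featureCounts 1.5.1 and STAR 2.5.2b, with no roles given. The kit was strand-specific per the labels' protocols. No source used here gives the strand option of the counting, how reads with more than 1 alignment were handled, or the build. CPM is the count over the column total times 1000000, and TPM was computed from deposited counts and lengths. The test over all genes was edgeR 4.0.16's quasi-likelihood test in R 4.3.3 (robust fit, TMM factors, filterByExpr, genotype as the only term), with Benjamini-Hochberg adjustment at 0.05. It was run on simulated data with the same spread for every gene and few changed genes. That does not show how it performs at the spreads of these data. Standard errors were derived from the F statistic of the test. Alternatives used limma 3.58.1 and DESeq2 1.42.0. Other lists, by the same CPM values, were genes of at least 50 CPM in Mpbes1 with a ratio of at least 8 and no overlap (strongly raised), and the mirror of the members' rule with genotypes exchanged (moderately lowered). Neighbours follow the order of starts on a scaffold.

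The rule for named genes took the highest by CPM in each genotype, the highest and lowest ratios, the widest and narrowest gaps, the largest spread in Mpbes1, members next to each other, and the extremes of exon length and exon blocks; at most 2 identifiers are printed. The members, lists and this rule were chosen with earlier results of these data known. Lists of pathway genes could not be filled, since identifiers could not be paired with names. A library's level of 3 counts is 0.169 to 0.259 CPM, and such limits cover counting error only. The binomial intervals are for shares of genes, treat genes as independent and do not cover spread between plants. The submitters' design text states that the plants of a genotype were independent. No pair of libraries of a genotype agreed within sampling noise (chi-square per degree of freedom 2.98 to 10.5).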

Additional observations from a re-analysis of the deposited data

How the results depend on the processing

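Of 154 alternative values over 10 results, 118 stayed within 1.5 times of the reported count, or within the spread or interval of the reported value. A reversal could be scored only for the members' median log2 fold change. The rule itself fixed that direction, so no count of reversals is given. Calls were compared as totals, without their direction. The 92 members are set by their limits. With a level of at least 25 CPM there were 162, with at least 100 CPM 41, with a ratio of at least 1.5 228 and with no upper limit 152, because these rules admit more or fewer genes. With TMM-adjusted sizes 79 genes met the rule and 78 of them were among the 92, with RLE sizes 78 and 77, with TPM 79 and 62, and after thinning to the smallest library 88 and 86. With 1 library left out, 83 to 94 genes met the rule, and 81 to 87 of these were among the 92. Adjacent pairs numbered 5, 1, 8 and 11 with 25 CPM, 100 CPM, a ratio of 1.5 and no upper limit, against 2. Median exon length was 1819 with 100 CPM, 1649 with TPM and 1796.5 bases with no upper limit, against 2157, and the percent with 1 or 2 blocks was 40.5 with TPM, against 29.3.

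The percent of counts taken by the genes that met each rule also moved. In Mpbes1 and Tak-1 it was 1.18 and 0.424 with TMM, 1.16 and 0.416 with RLE, 1.62 and 0.602 with 25 CPM, 1.02 and 0.383 with 100 CPM, 1.15 and 0.406 with TPM, 3.59 and 1.86 with a ratio of 1.5, and 2.42 and 0.539 with no upper limit. It was 0.493 in Tak-1 after thinning, and with 1 library left out 1.27 to 1.34 in Mpbes1 and 0.458 to 0.487 in Tak-1. All 92 were called higher in every fit except 91 with no low-count filter, without the second Tak-1 library and without the third Mpbes1 library. Members were chosen by this contrast in the same libraries, so these calls are no independent check of them. Over all tested genes, 1795 to 2805 were called higher across these fits, against 2380 in the main fit. Genes that rose at least 2-fold numbered 401 with at least 5 CPM in 3 libraries and 642 with no filter, against 560. Calls numbered 3974 to 4808 with 1 library left out, against 4977, and by library size only 2805 rose and 2294 fell, against 2380 and 2597, so the direction with more calls depended on the scaling. Deviations of same-numbered libraries had correlations of 0.17, -0.03 and 0.14 for numbers 1, 2 and 3. Those of differently numbered libraries ran from -0.21 to 0.08, below the values 0.17 and 0.14, and those of 0.06 and 0.08 were above -0.03. The numbers were not taken as pairs in the main fit, and whether they mark pairs was not tested. The replicate block gave 5246 calls, and 5405 with the length offset. The rule sets a minimum level, so depth bears on the precision of the members' values.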
